A study of Aspergillus nidulans with 32 samples.

Results

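In the filamentous fungus Aspergillus nidulans, 17 genes were high after 4 h without carbon and nitrogen but were raised at most 1.5-fold when naive mycelium met nutrient-free salt solution or used medium for 1 h. They are AN5423, AN0245, AN4532, AN5764, AN3530, AN12199, AN8688, AN3613, AN12262, AN11873, AN8322, AN11810, AN0903, AN5408, AN11894, AN7900 and AN0543, out of 10681 genes in the deposited count table. They were chosen by their measured levels, as CPM (counts scaled to a common library size) plus 0.5, averaged over a group. A gene had to reach at least 10 in starved cultures and at least 4 times its value in grown cultures. It could not exceed 1.5 times naive refed cultures in either naive salt or naive used cultures. Its ratio of pre-starved refed to naive refed cultures had to lie between 0.5 and 4, and its ratio of pre-starved salt to naive salt cultures under 2. Values in those 7 groups are therefore description only. Pre-starved used cultures were the single group that the rule did not touch.

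All cultures were mycelium grown with shaking at 37 °C in minimal medium holding 50 mM glucose and 10 mM nitrate. Starved cultures had 20 h of growth and then 4 h in a salt solution that lacked the carbon and nitrogen sources, and grown cultures had 24 h of growth. Pre-starved refed cultures had the starved treatment followed by 2 h in fresh medium, and naive refed cultures had 24 h of growth followed by 2 h in fresh medium. Pre-starved salt and naive salt cultures were such refed cultures after a further 1 h in salt solution. Pre-starved used and naive used cultures were refed cultures after a further 1 h in medium in which the fungus had grown for 48 h. Each group held 2 cultures, A and B, which the labels call biological replicates, and each culture gave 2 technical libraries whose counts were summed. The labels list the wild type, WT FGSC#4, together with a strain called alcA(p)-sGFP-aflR (RKIS42.17), and do not say from which of them a sample came. The 4 h cultures also differed from the 1 h cultures in growth time and in having had no step in fresh medium, so length of starvation and these steps cannot be told apart. Salt and used cultures were taken 1 h later than refed cultures and after a further change of medium. No group stayed in fresh medium for that hour, so the effect of the medium cannot be told apart from these steps.

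When its carbon and nitrogen run out, a mould such as A. nidulans first switches on transporters and catabolic enzymes for other nutrients and lowers the genes of growth and protein synthesis. If the shortage lasts, autophagy, secreted hydrolases that digest old hyphae, secondary metabolite gene clusters and the programme of asexual spore formation follow. None of the 17 genes has a symbol in the deposited table or in the RefSeq annotation used for names, so no function is given for them. Of the 17, 6 (35.3%), namely AN12199, AN8688, AN12262, AN11873, AN11810 and AN11894, were not found in RefSeq assembly ASM1142v1, and the other 11 were. Among all tested genes 601 of 10022 were not found there. The median exon length of the 17 was 1.20 kb, against 1.55 kb over all tested genes.

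Libraries held 19634577 to 33202687 counts, and cultures 39526910 to 66121549. Some markers of spore-forming structures were high in the starved mycelium: 10 markers of the conidiophore and conidium summed to 2957 to 3276 CPM in starved cultures, against 65.2 to 65.8 CPM in grown cultures, with no marker at 0 in either group. The sum was carried by ivoB (1719 CPM), rodA (875 CPM) and brlA (365 CPM) in starved cultures, while abaA and wetA, later regulators of spore formation, were not called, and dewE, a conidial gene outside the 10, was lower at 120.0 CPM in starved than at 2421 CPM in grown cultures. In pre-starved refed cultures the sum was 1820 to 2362 CPM, against 78.8 to 78.9 CPM in naive refed cultures, and nearly all of it was rodA at 1820 CPM, with ivoB at 113 CPM and brlA at 101 CPM. The sum was 280 to 492 CPM in pre-starved used and 127 to 153 CPM in naive used cultures, and 553 to 965 CPM in pre-starved salt and 141 to 170 CPM in naive salt cultures. Across 6 markers of Hülle cells and sexual fruiting bodies it was 1901 to 2009 CPM in starved and 455 to 457 CPM in grown cultures, but higher still at 3017 to 3061 CPM in naive salt and 3111 to 3254 CPM in naive used cultures, mostly from cpeA. In these bulk samples fewer cells of a type and less RNA per cell cannot be told apart, and the part of spore-forming cells in the results on the 17 genes was not tested.

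The rule's conditions differed widely in how many genes they removed. Of 752 genes with the required level and rise in starved cultures, 77 (10.2%) were at or under the limit in naive salt cultures, 52 of those were also at or under it in naive used cultures, 42 of those met the refeeding window and 17 (2.26%) met the condition on pre-starved salt cultures. Most genes raised at 4 h were thus also higher after 1 h in salt solution or used medium in naive mycelium. Over the other 735 raised genes the median log2 change from naive refed cultures was 3.17 in naive salt and 3.33 in naive used cultures. The last condition alone removed 25 of the remaining 42 genes, which were at least 2 times as high in pre-starved salt as in naive salt cultures.

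**Figure D1:**
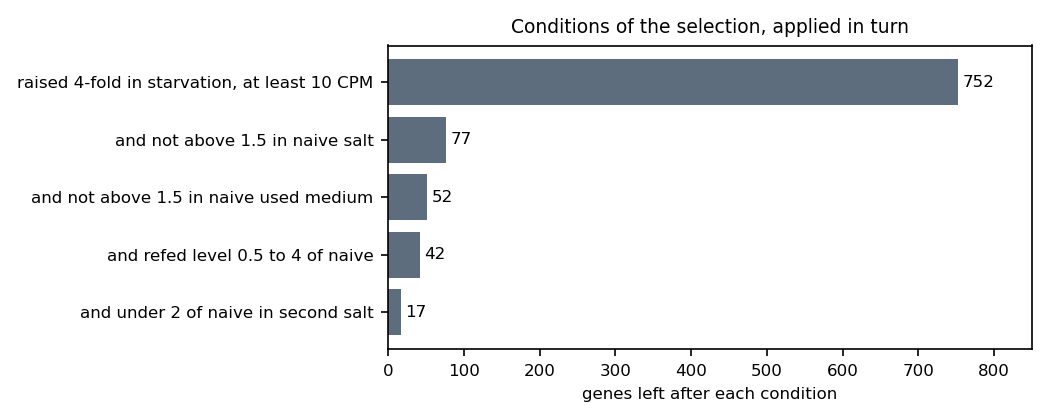
Number of genes left after each condition of the rule, applied in order to the 752 genes that reached at least 10 and at least 4 times the grown level in starved cultures. The bars fall from 752 to 77, 52, 42 and 17 genes.

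Genes near the limits were not set apart by a gap. The smallest starved to grown ratios inside were 4.08 for AN12199, 4.16 for AN0903 and 4.39 for AN11894, and the nearest outside were 3.88 for AN6819, 3.69 for AN12483 and 3.67 for AN0620. The lowest starved levels inside were 10.3 for AN0543, 10.9 for AN7900 and 12.3 for AN11894, and the nearest outside were 7.73 for AN0612, 7.54 for AN8131 and 6.36 for AN7410. Some genes were also close to the other limits. The naive salt to naive refed ratio of AN11894 was 1.497, under a limit of 1.5. AN5423 had a pre-starved refed to naive refed ratio of 0.527, above a limit of 0.5. For AN11873 the pre-starved salt to naive salt ratio was 1.76, under a limit of 2. With the ratio at 3 the rule chose 32 genes and with it at 8 it chose 5. With culture A of every group left out it chose 21 genes, of which 12 were among the 17, and without culture B it chose 16, of which 11 were among the 17. With plain library totals in place of TMM scaling it chose 13, of which 8 were among the 17. The genes chosen under each of library totals, DESeq2 size factors, an added value of 1, and either culture alone were AN0245, AN4532, AN3530, AN12262, AN11810 and AN5408.

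The most abundant transcript was AN5423, at 437 and 450.0 CPM in starved cultures A and B, against 105 and 87.6 CPM in grown cultures. It was the only one of the 17 above 100 CPM in every naive refed, naive salt and naive used culture, with 214 and 179 CPM in naive salt, 133 and 141 CPM in naive used and 185 and 188 CPM in naive refed cultures. After starvation it stood at 189 and 228 CPM in pre-starved salt, 157 and 146 CPM in pre-starved used and 109 and 86.2 CPM in pre-starved refed cultures. So AN5423 was a well expressed gene in every condition that was highest, with no overlap, in starved mycelium. Per kb of exon its starved level was 247 CPM, higher than 96.1% of the genes of the table.

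AN0245 was the steadiest gene outside starvation. It measured 232 and 208 CPM in starved cultures, against 44.4 and 44.0 CPM in grown cultures. Its other 12 cultures lay between 41.4 CPM in naive used culture B and 65.7 CPM in pre-starved salt culture B. Starvation for 4 h was thus the only condition in which AN0245 left a narrow range.

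AN4532 rose most among the abundant genes, and its 2 starved cultures differed. It had 253 and 134 CPM in starved cultures, against 24.9 and 22.7 CPM in grown cultures. It had 17.9 and 14.4 CPM in pre-starved used, 21.7 and 21.4 CPM in pre-starved salt and 20.8 and 19.6 CPM in pre-starved refed cultures, against 21.7 and 22.2 CPM in naive used, 38.8 and 29.4 CPM in naive salt and 34.7 and 32.2 CPM in naive refed cultures. In each of the 3 media every pre-starved culture of AN4532 was below every naive one, and pre-starved used cultures were the lowest of all.

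AN5764 and AN3530 formed a middle group whose second highest level was in pre-starved salt cultures. AN5764 had 162 and 179.5 CPM in starved and 30.5 and 32.9 CPM in grown cultures, with 99.4 and 81.6 CPM in pre-starved salt cultures. AN3530 had 43.2 and 40.2 CPM in starved and 7.16 and 7.50 CPM in grown cultures, with 21.5 and 26.0 CPM in pre-starved salt cultures. For both genes the lowest starved culture exceeded every other culture.

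**Figure D2:**
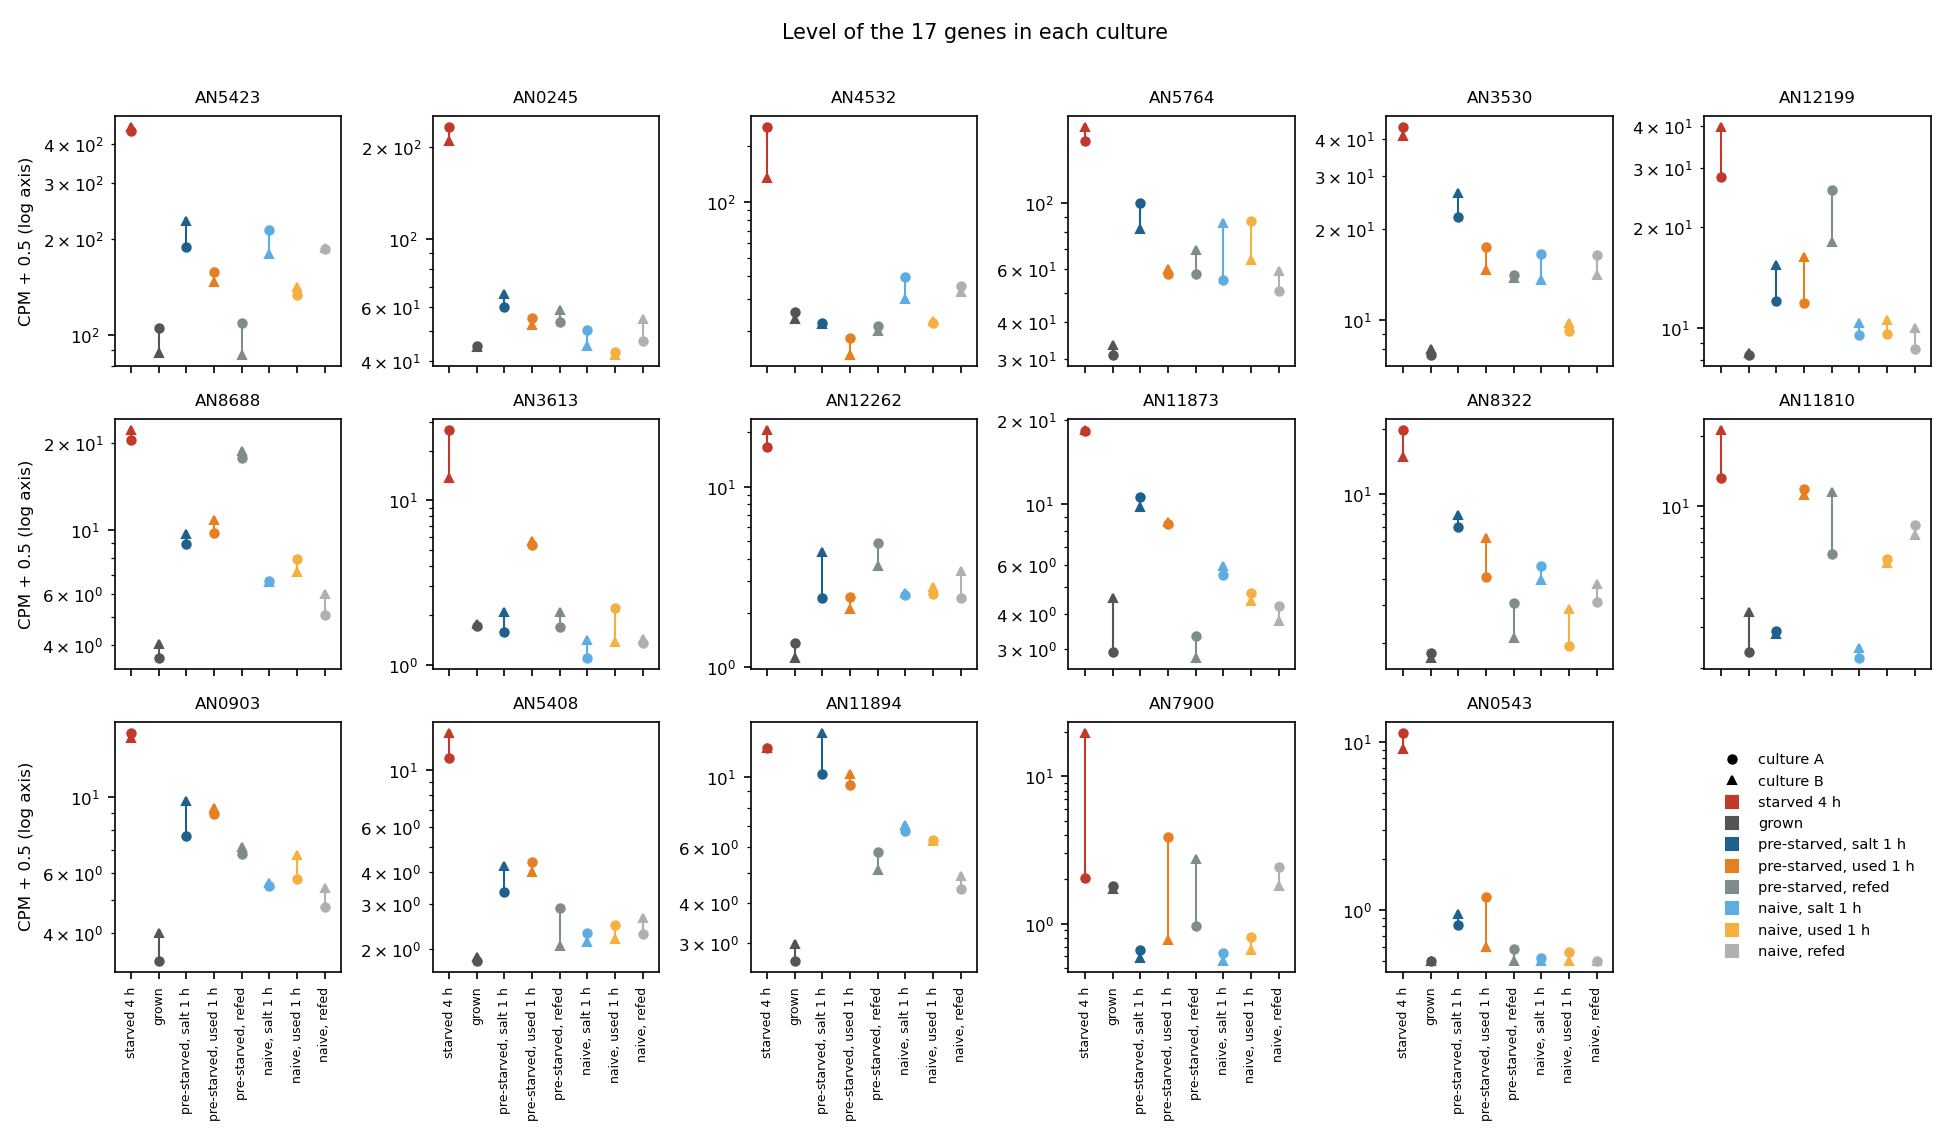
Level of each of the 17 genes in every culture, in CPM on a log scale, with 1 panel per gene and 1 marker per culture. Both starved cultures are above the 14 other cultures for 15 genes, and not for AN11894 and AN7900.

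Among the lower expressed genes, AN12199 and AN8688 stayed up after refeeding. AN12199 had 27.7 and 39.1 CPM in starved and 7.81 and 7.94 CPM in grown cultures. In pre-starved refed cultures it kept 25.2 and 17.5 CPM, against 8.17 and 9.50 CPM in naive refed cultures. AN8688 had 20.0 and 21.6 CPM in starved and 3.12 and 3.54 CPM in grown cultures, and 17.3 and 18.3 CPM in pre-starved refed, against 4.60 and 5.50 CPM in naive refed cultures. After 2 h in fresh medium every pre-starved culture of both genes was thus still above every naive one, by ratios inside the window the rule allowed.

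AN3613, AN12262 and AN0543 were low in grown mycelium, as were AN8322, AN7900 and AN5408, with grown means of 1.25, 1.27 and 1.33 CPM. AN3613 had 26.2 and 13.2 CPM in starved and 1.22 and 1.26 CPM in grown cultures, and no more than 1.72 CPM in any naive culture. AN12262 had 16.1 and 20.1 CPM in starved and 0.868 and 0.629 CPM in grown cultures. AN0543 had 10.8 and 8.63 CPM in starved cultures, from 751 and 578 counts, against 0 counts in all grown and naive refed cultures. These 3 genes had the largest starved to grown ratios. With the grown group set at 3 counts in all, AN0543 was at least 243-fold higher in starved cultures, a bound that covers counting error only.

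AN11873, AN8322, AN11810, AN0903 and AN5408 had starved levels between 10.7 and 20.7 CPM and grown levels between 1.21 and 4.06 CPM. AN11810 was the gene of these 5 that naive mycelium lowered in salt solution, with 1.71 and 1.92 CPM in naive salt, against 7.78 and 7.01 CPM in naive refed cultures. Its pre-starved salt cultures were as low, at 2.37 and 2.28 CPM, while its used-medium cultures were not, at 11.3 and 10.6 CPM in pre-starved used and 5.41 and 5.17 CPM in naive used cultures. AN11810 thus differed between the 2 nutrient-poor media in both histories.

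The name of a starvation-only gene held least well for AN11894 and AN7900, and poorly for AN8688, AN12199 and AN11810. AN8688 stayed near its starved level in pre-starved refed cultures. The lowest starved culture was 1.10, 1.10 and 1.12 times the highest other culture for AN8688, AN12199 and AN11810. That other culture was a pre-starved refed one for AN8688 and AN12199 and a pre-starved used one for AN11810. AN11894 had 11.8 and 11.8 CPM in starved and 2.14 and 2.49 CPM in grown cultures, but 9.71 and 13.2 CPM in pre-starved salt cultures, which overlap the starved ones. AN7900 had 1.55 and 19.2 CPM in starved and 1.30 and 1.23 CPM in grown cultures, so that its place among the 17 rested on starved culture B alone. Without culture B it did not meet the rule. The 15 genes other than AN11894 and AN7900 had both starved cultures above all 14 other cultures, as had 8.33% of tested genes and 203 of the other 735 raised genes (27.6%). The rule used these levels, and nothing is read from the difference. Over the 17 genes the ratio of starved culture B to A had a median of 1.01 and ran from 0.504 for AN3613 to 12.3 for AN7900.

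How large the starved level looks depended on the comparison level. Levels in this paragraph are those of the rule, CPM plus 0.5. The added value makes these ratios smaller than those of CPM alone, most of all for genes of few counts. Each of the 17 was at least 4-fold above grown cultures by the rule, but 9 of 17 were at least 4-fold above naive refed cultures, where the median ratio was 4.39 and the range 2.19 to 20.5. The top of that range was AN0543, with 0 counts in naive refed cultures, so its denominator is the added 0.5 alone. With 3 counts set there, AN0543 was at least 269-fold higher in starved cultures, a bound that covers counting error only. AN11810 was 5.96 times its grown and 2.19 times its naive refed level. AN5423 was 4.63 times its grown and 2.39 times its naive refed level, and AN12262 15.01 and 6.42 times. Without the added value, AN12262 had means of 18.1 CPM in starved, 0.749 CPM in grown and 2.42 CPM in naive refed cultures. By contrast AN3613 was 11.7 times its grown and 14.6 times its naive refed level.

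Naive refed cultures had fitted levels above those of grown cultures for 15 of the 17 genes, with a median log2 difference of 0.56 against -0.02 over all tested genes. By the edgeR quasi-likelihood test with Benjamini-Hochberg adjustment, 5 of 17 were called higher in naive refed than in grown cultures, where 2.13% of tested genes were, and none was called lower, where 0.978% were. The rule set both groups' levels as denominators, so this count is description. AN5423 had 185 and 188 CPM in naive refed, against 105 and 87.6 CPM in grown cultures. AN11810 had 7.78 and 7.01 CPM in naive refed, against 1.84 and 2.96 CPM in grown cultures.

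**Figure D3:**
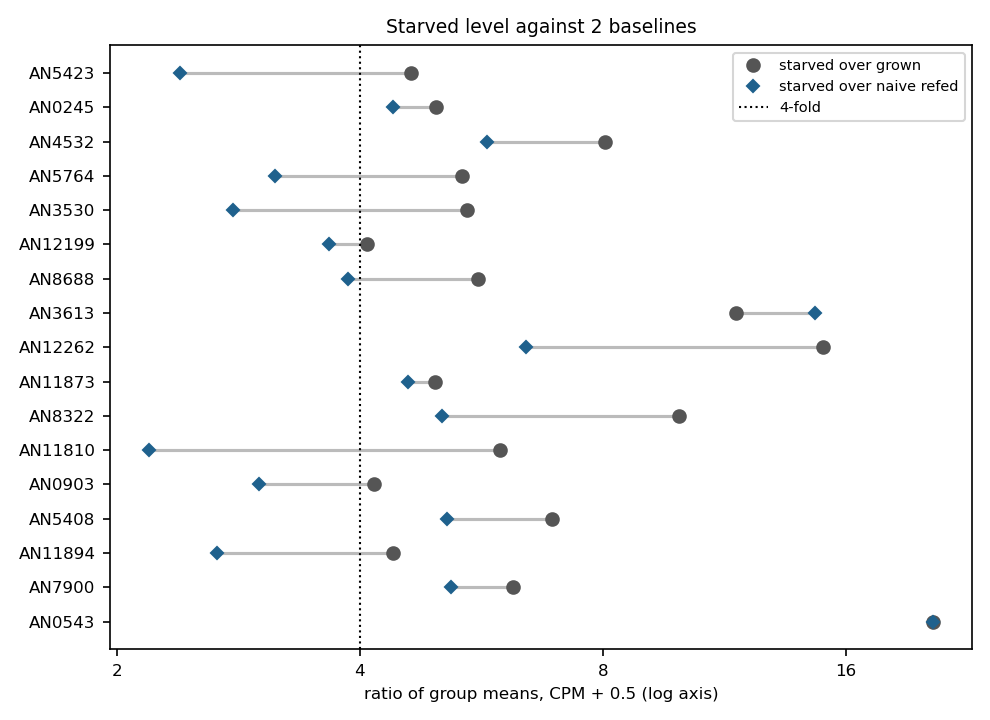
Ratio of the starved level to the grown level and to the naive refed level for each of the 17 genes. Levels are CPM plus 0.5, and the ratios are on a log axis with a line at 4. All 17 lie at or past 4 against grown cultures and 9 of 17 do so against naive refed cultures.

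Pre-starved used against pre-starved refed cultures was a comparison with 1 side outside the rule. It asks whether the 17 genes were higher after 1 h in used medium in mycelium that had already starved. The pre-starved used cultures were also 1 h further from refeeding, so used medium and that hour cannot be told apart. In pre-starved used cultures 7 were called higher and 3 lower, or 5 and 3 with limma voom. By the edgeR quasi-likelihood test with Benjamini-Hochberg adjustment over 10022 genes, 39.9% of tested genes were called higher and 37.1% lower in this comparison, so the share of the 17 called higher (41.2%) was near that of all genes. The median log2 change of the 17 was 0.40, against 0.07 over all tested genes. Of the other 735 genes raised at 4 h, 643 (87.5%) were called higher and 31 lower, and their median log2 change was 2.99. Most of those 735 genes had been left out by the limits on 1 h in salt or used medium, so nothing is read from this contrast. Pre-starved refed cultures entered the rule through their ratio to naive refed cultures, so the comparison is free of the rule on 1 side only. The rule also capped pre-starved salt cultures, from which pre-starved used cultures were called different for 17% of tested genes. With library totals in place of TMM the median of all genes moved by 0.60, and 12 of the 17 were called higher and none lower, with a share of higher among all called genes of 67.8% in place of 51.8%.

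Of the 7 genes that rose, AN11873 and AN3613 had the largest changes after AN0543, a gene of few counts. AN11873 had 7.98 and 8.12 CPM in pre-starved used, against 2.83 and 2.29 CPM in pre-starved refed cultures, a log2 change of 1.65 (SE 0.22, adjusted p = 1.97e-05). AN3613 had 4.85 and 5.19 CPM in pre-starved used, against 1.19 and 1.59 CPM in pre-starved refed cultures, a log2 change of 1.85 (SE 0.38, adjusted p = 0.000645). In both genes the pre-starved used cultures lay above all pre-starved refed and all naive cultures, and below both starved cultures.

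AN5423, AN11894, AN5408 and AN8322 rose by less. AN5423 had 157 and 146 CPM in pre-starved used, against 109 and 86.2 CPM in pre-starved refed cultures, a log2 change of 0.64 (SE 0.14, adjusted p = 0.0011). AN11894 had 8.92 and 9.71 CPM in pre-starved used, against 5.31 and 4.60 CPM in pre-starved refed cultures, a log2 change of 0.91 (SE 0.18, adjusted p = 0.000479). For these 2 genes the groups did not overlap and the call held with each culture left out in turn. AN5408 had 3.86 and 3.49 CPM in pre-starved used, against 2.39 and 1.55 CPM in pre-starved refed cultures, a log2 change of 0.90 (SE 0.25, adjusted p = 0.00539). AN8322 had 3.57 and 5.69 CPM in pre-starved used, against 2.59 and 1.62 CPM in pre-starved refed cultures, a log2 change of 1.14 (SE 0.32, adjusted p = 0.00556). Neither overlapped, but AN5408 lost its call with limma voom (adjusted p = 0.0592) and without pre-starved refed culture B (log2 change 0.62), and AN8322 without either pre-starved used culture B (0.77) or pre-starved refed culture B (0.84).

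AN0543, the gene at 0 in grown mycelium, had 43 and 6 counts in pre-starved used cultures, against 4 and 0 counts in pre-starved refed cultures. Its fitted log2 change was 3.11 (SE 1.14, adjusted p = 0.0279). The call was lost without pre-starved used culture A (log2 change 1.16) or pre-starved refed culture B (2.16), with DESeq2 (adjusted p = 0.092) and with limma voom over the libraries (log2 change 2.60, adjusted p = 0.102). Its level of 0.695 and 0.102 CPM in pre-starved used cultures was far below the 10.8 and 8.63 CPM in starved cultures.

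The 3 genes called lower in pre-starved used cultures were AN8688, AN12199 and AN12262. Pre-starved refed was their second highest group, which by itself places pre-starved used below it, so nothing is read from that match. The fall was not seen in used medium alone. In pre-starved salt against pre-starved refed cultures their log2 changes were -1.01 (SE 0.15), -0.70 (SE 0.23) and -0.38 (SE 0.32), the last not called. AN8688 had 9.29 and 10.3 CPM in pre-starved used, against 17.3 and 18.3 CPM in pre-starved refed cultures, a log2 change of -0.86 (SE 0.15, adjusted p = 0.000172). AN12199 had 11.3 and 15.8 CPM in pre-starved used, against 25.2 and 17.5 CPM in pre-starved refed cultures, a log2 change of -0.66 (SE 0.23, adjusted p = 0.0203). AN12262 had 1.94 and 1.61 CPM in pre-starved used, against 4.37 and 3.14 CPM in pre-starved refed cultures, a log2 change of -1.08 (SE 0.33, adjusted p = 0.00885). No culture overlapped for these 3 genes. AN12199 lost its call with the 2 groups fitted alone (adjusted p = 0.0674) and without pre-starved used culture A (-0.43) or pre-starved refed culture A (-0.36), and AN12262 without pre-starved used culture B (-0.95) or pre-starved refed culture A (-0.82), so that without pre-starved refed culture A only AN8688 was called lower. None of the 3 was called with library totals.

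The other 7 genes did not pass the test, with log2 changes from -0.32 for AN4532 (SE 0.24) to 0.41 for AN7900 (SE 1.09). AN0903 was closest to the threshold, with 8.42 and 8.78 CPM in pre-starved used and 6.32 and 6.67 CPM in pre-starved refed cultures, which do not overlap (log2 change 0.40 (SE 0.18, adjusted p = 0.0543)), and it passed with the culture letter as a block (adjusted p = 0.0389). AN11810 had 11.3 and 10.6 CPM in pre-starved used and 5.69 and 11.0 CPM in pre-starved refed cultures, which overlap. Counting cultures alone, 9 of the 17 had both pre-starved used cultures above both pre-starved refed cultures, as had 45.1% of tested genes, and 4 had them below, as had 42.1%.

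**Figure D4:**
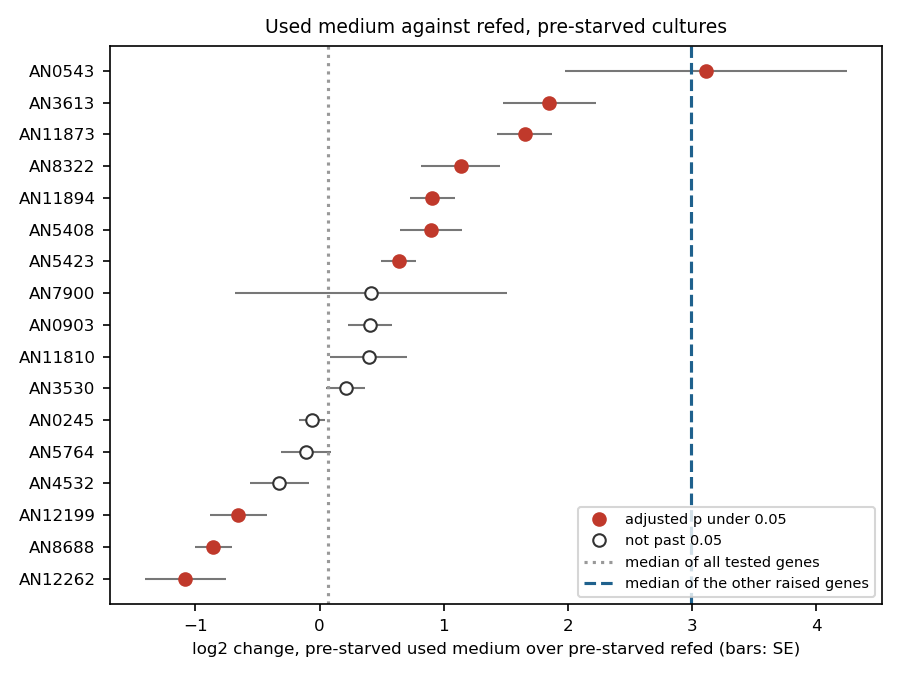
Log2 change of pre-starved used over pre-starved refed cultures for each of the 17 genes, with bars of 1 SE, filled where the adjusted p is under 0.05. AN0543, AN3613 and AN11873 have the largest rises, AN12262, AN8688 and AN12199 fell, and the median of the other 735 raised genes is 2.99.

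Used medium did not bring any of the 17 back to its starved level. The pre-starved used mean was below the starved mean for all 17, by 1.27-fold for AN11894 to 24.4-fold for AN0543. For 16 of them the lowest starved culture was above the highest pre-starved used culture, the exception being AN7900. The starved levels chose the genes, so these ratios are description. Against pre-starved salt cultures, pre-starved used cultures were called higher for 2 of the 17 (9.02% of tested genes), AN3613 with a log2 difference of 1.91 and AN11810 with 2.24, and lower for 2 (8% of tested genes), AN5423 with -0.46 and AN3530 with -0.61. With library totals the median of all genes moved by -0.16, and 2 were called higher and 4 lower.

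Set against naive mycelium in the same medium, the 17 genes were called higher more often than lower after an earlier starvation. In used medium 11 of 17 were called higher in the pre-starved cultures than in the naive ones (21.6% of tested genes) and none lower (18.1% of tested genes), with a median log2 difference of 0.69, against 0.01 over all tested genes. The rule held down the naive used level, which was the lower side of this difference, so nothing is read from the count. It was 5 without naive used culture A, 6 without naive used culture B, 7 without pre-starved used culture B and 8 without pre-starved used culture A. In salt solution, where the rule limited the difference to under 2-fold, 9 of 17 were called higher in the pre-starved cultures than in the naive ones (24.7% of tested genes) and 1 lower (18.2%), with a median log2 difference of 0.53.

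In used medium the largest fitted difference was that of AN0543, which rests on 43 and 6 counts in pre-starved used, against 3 and 0 counts in naive used cultures. That of AN7900 was next, at 2.87 (SE 1.31, adjusted p = 0.1), and was not called. Among the called genes AN3613, AN8322 and AN11810 followed AN0543. AN3613 had 4.85 and 5.19 CPM in pre-starved used, against 1.72 and 0.882 CPM in naive used cultures. AN8322 had 3.57 and 5.69 CPM in pre-starved used, against 1.44 and 2.38 CPM in naive used cultures. AN11810 had 11.3 and 10.6 CPM in pre-starved used, against 5.41 and 5.17 CPM in naive used cultures. In AN0543, AN3613, AN8322 and AN11810 the groups did not overlap. Over all 17, both pre-starved used cultures were above both naive used cultures for 13 genes (35.9% of tested genes), and below for 3 (33.2%), AN4532, AN5764 and AN12262.

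In salt solution the rule used both groups, so the values of single genes are description. AN11894 had 9.71 and 13.2 CPM in pre-starved salt, against 6.26 and 6.55 CPM in naive salt cultures, a log2 difference of 0.84 (SE 0.18). AN11873 had 10.1 and 9.21 CPM in pre-starved salt, against 5.06 and 5.49 CPM in naive salt cultures, a log2 difference of 0.87 (SE 0.21). These 2 genes had no overlap between the groups. AN8322 had 6.47 and 7.45 CPM in pre-starved salt, against 4.10 and 3.46 CPM in naive salt cultures, a log2 difference of 0.88 (SE 0.30). AN4532 was the gene called lower, with 21.7 and 21.4 CPM in pre-starved salt, against 38.8 and 29.4 CPM in naive salt cultures, a log2 difference of -0.66 (SE 0.23). AN0543 had 22 and 37 counts in pre-starved salt, against 1 and 0 counts in naive salt cultures, levels so low that the value of 0.5 added by the rule kept its ratio under 2.

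The change from refed to used cultures also differed with the history of the mycelium for 5 of the 17 genes, by the interaction term of the same model. This share was near that of all tested genes, 27.4%. These were AN5423, AN3530, AN8688, AN11873 and AN8322, and since the rule capped the change in naive mycelium the count is description.

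Salt solution gave the pre-starved mycelium a similar picture, within groups that the rule did use. In pre-starved salt against pre-starved refed cultures 8 of 17 were called higher (40.2% of tested genes) and 4 lower (36.4%), while the other 735 raised genes had a median log2 change of 2.87. In naive mycelium, where the rule capped the rise, 2 of 17 were called higher (36.3%) and 2 lower (39.1%) in naive salt against naive refed cultures, and 2 higher (38.1%) and 4 lower (38%) in naive used against naive refed cultures. Refeeding brought most of the genes down again: 16 of 17 were called lower (41.1%) and none higher (35.2%) in pre-starved refed than in starved cultures. The exception was AN8688, with a log2 change of -0.23 (SE 0.15). Against naive refed cultures, pre-starved refed cultures were called higher for 3 of 17 (21.4%) and lower for 2 (21.3%). With library totals these counts were 11 and 1 for pre-starved salt against pre-starved refed, 10 and 2 for naive salt against naive refed, and 5 and 0 for naive used against naive refed cultures.

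AN7900 was the only one of the 17 found among 18 lists of developmental, autolytic, regulatory and secondary metabolite genes, of which 145 were in the table and 134 tested. It lies in the run AN7893 to AN7903, the cluster known to make benzaldehyde derivatives. In starved against grown cultures 6 of these 11 genes were called higher (38.8% of tested genes) and none lower (34.6%), and the median log2 change was 2.19. The 6 include AN7900, which the rule chose on this level, and AN7893, AN7897, AN7902 and AN7903, with SEs of 2.31, 2.40, 2.44 and 2.61. In pre-starved used against pre-starved refed cultures 7 of 11 were called higher (39.9% of tested genes) and none lower (37.1%), with a median of 3.23, and AN7900 was not among the 7. It had 3.35 and 0.271 CPM in pre-starved used and 0.461 and 2.27 CPM in pre-starved refed cultures, a log2 change of 0.41 (SE 1.09, adjusted p = 0.742). The neighbouring AN7899, 1 of the 7, had the same unevenness between cultures, with 1.51 and 13.7 CPM in starved and 33.6 and 0.661 CPM in pre-starved used cultures. Its pre-starved refed cultures had 0.769 and 2.90 CPM, so its call (log2 change 3.23, SE 1.38, adjusted p = 0.0485) rested on culture A. The median of 3.23 was this value. Of the others called, AN7893, AN7897 and AN7903 had SEs of 1.78, 1.77 and 1.90, so the count of 7 is uncertain. For both AN7900 and AN7899 the high culture was B among the starved and A among the pre-starved used.

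Some spore genes were close to the 17 but fell outside. Of the 145 listed genes in the table, 33 met the first condition on level and rise, and AN7900 met all. The gene dewC, a hydrophobin of the spore wall, and ivoB, a phenol oxidase of conidiophore pigment, met every condition but the last, being too high in pre-starved salt cultures. Among asexual development and conidial genes, 14 of 22 tested were called higher and 4 lower in starved against grown cultures, where 38.8% of all tested genes were called higher and 34.6% lower. In the list of autolysis genes and extracellular hydrolases, which includes the regulator xprG, 6 of 7 were called higher and 1 lower in that comparison.

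Gene order in RefSeq placed 11 of the 17 and left out the 6 without an entry there. No 2 of the 11 were neighbours, and the closest pair, AN5408 and AN5423 on chromosome V, were 17 genes apart. Of 19 tested genes directly beside the 11, 11 were called higher in starved than in grown cultures (38.8% of tested genes) and 6 lower (34.6%). The neighbours thus included genes changed in both directions.

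AN5764 had the most strongly raised neighbours. AN5763 had 865 and 687 CPM in starved and 3.20 and 2.73 CPM in grown cultures, a log2 change of 8.03 (SE 0.27, adjusted p = 1.79e-10). AN5765 had 66.2 and 79.4 CPM in starved and 1.14 and 0.603 CPM in grown cultures, a log2 change of 6.38 (SE 0.26, adjusted p = 5.4e-10). Unlike AN5764, AN5763 was also high after 1 h without nutrients in naive mycelium, with 286 and 243 CPM in naive salt and 3.33 and 3.01 CPM in naive refed cultures. AN5764, held under the 1 h limits by the rule, thus lay beside a gene that was high at both times. The counting is not stated to use strand, and the library kit does not mark it, so reads of overlapping neighbours cannot be told apart.

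Both neighbours were also called higher beside AN0903 (log2 changes of 1.92 and 1.69), AN8322 (4.16 and 1.67) and AN4532 (0.96 and 1.79). The 4.16 was that of AN8321, a gene near the floor, with 0.979 and 0.523 CPM in starved and 0.027 and 0.052 CPM in grown cultures. The only tested neighbour of AN0543, AN0542, had 2.13 and 1.84 CPM in starved and 0 and 0.131 CPM in grown cultures. Around AN3530 both neighbours were called lower in starved cultures, with log2 changes of -2.23 and -2.48. Beside AN3613 the tested neighbour AN3612 was lower by a log2 change of -4.32, and beside AN5423 the neighbour AN5424 by -3.25. Both were low, AN3612 with 0.245 and 0.090 CPM in starved and 3.74 and 3.04 CPM in grown cultures. AN5424 had 0.187 and 0.045 CPM in starved and 1.17 and 1.10 CPM in grown cultures. The raised genes AN3530, AN3613 and AN5423 thus stood next to genes that starvation lowered.

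**Figure D5:**
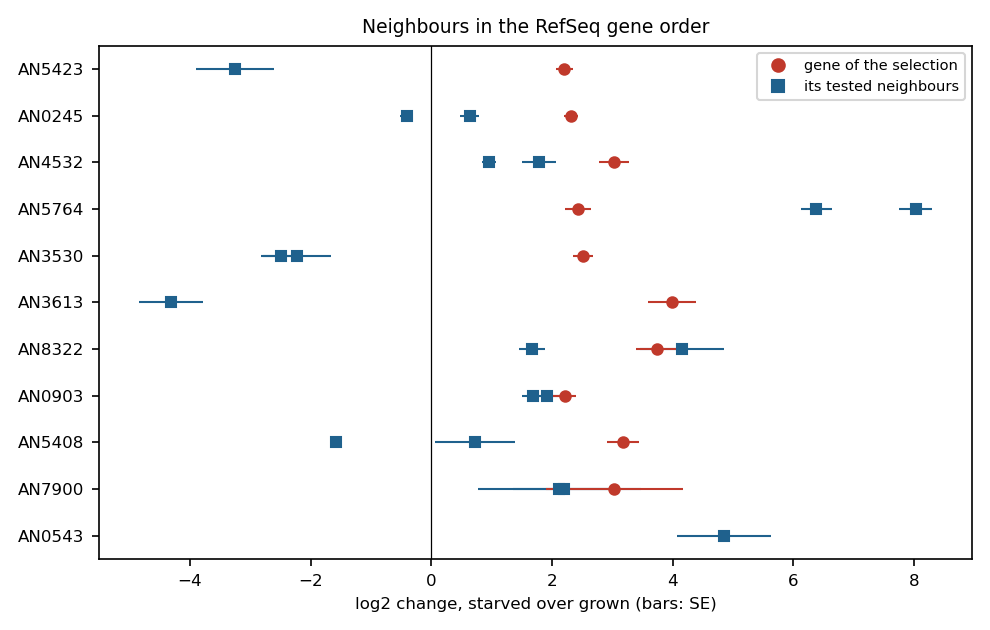
Log2 change of starved over grown cultures for the tested genes directly before and after each of the 11 placed genes in RefSeq order, with the gene itself marked where grown cultures had counts. Neighbours run from -4.32 beside AN3613 to 8.03 beside AN5764.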

How the data were processed

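The authors deposited raw counts per gene, 1 column for each of 32 libraries of polyadenylated RNA, and log2 FPKM per group. Per the labels' protocols, TruSeq v2 libraries were sequenced as single ends; the tools listed in the submitters' processing notes are Trimmomatic 0.36, BWA, HTSeq, edgeR and limma, with no role given. Technical libraries were added up per culture. In R 4.3.3, filterByExpr of edgeR 4.0.16 (minimum count 10, minimum total 15) retained 10022 genes and left out 659, which held 0.00149% of counts. After TMM scaling, a single quasi-likelihood model with 1 mean for each group took in all 16 cultures (8 residual degrees of freedom). Tests were 2-sided, with Benjamini-Hochberg adjustment over all tested genes and a threshold of 0.05. All 17 genes passed the filter. A separate culture is a label's word, so p-values measure the spread between these cultures. Bounds at 0 counts use 3 counts over the group and cover counting error only. Alternatives were DESeq2 1.42.0, limma 3.58.1 voom over libraries, other scalings, filters, a block on the culture letter, and leaving out each culture. The genes and lists were chosen with earlier results of these data known. All 17 genes are named; a further gene is named where it stands next to a limit, beside a gene of the 17 or 1 condition short. Gene order came from RefSeq ASM1142v1, while the labels name assembly s10-m03-r07, so no positions are given. No sequence was used here.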

Additional observations from a re-analysis of the deposited data

Results flagged for a closer look

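For 5 of the 17 genes the change from refed to used medium differed between pre-starved and naive mycelium by the interaction term of the edgeR quasi-likelihood model with Benjamini-Hochberg adjustment. With 27.4% of tested genes called, the share among the 17 was near that of all genes. The rule capped the change in naive mycelium, so the genes were not chosen independently of this difference. AN8322 had a difference of log2 changes of 1.77 (adjusted p = 0.0129). It was 3.57 and 5.69 CPM in pre-starved used against 2.59 and 1.62 CPM in pre-starved refed cultures, and 1.44 and 2.38 CPM in naive used against 2.59 and 3.29 CPM in naive refed cultures, so it went up in the first pair and down in the second. The value was 1.46 and no longer called without pre-starved refed culture B (adjusted p = 0.0529). AN11873 had a difference of 1.43 (adjusted p = 0.00551) and AN5423 of 1.08 (adjusted p = 0.00206). AN5423 was lower in used than in refed medium in naive cultures, at 133 and 141 against 185 and 188 CPM, and higher in pre-starved cultures, at 157 and 146 against 109 and 86.2 CPM. AN3530 had a difference of 0.93 (adjusted p = 0.00861). Its level was 8.71 and 9.27 CPM in naive used against 15.96 and 13.6 CPM in naive refed cultures. AN8688 was the only one in the other direction, at -1.34 (adjusted p = 0.000856), with 17.3 and 18.3 CPM in the pre-starved refed cultures. Apart from AN8322, these calls held with each of the 8 cultures involved left out in turn.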

How the results depend on the processing

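With 2 cultures per group, the genes at 10 to 20 CPM set the limits: AN0543 rests on at most 43 counts outside starvation, and AN7900 on a single starved culture. The rule chose 32 genes at a ratio of 3, 5 at a ratio of 8 and 8 at a level of 20, and 16 to 21 with culture A or B of every group left out. For pre-starved used against pre-starved refed cultures, leaving out 1 culture gave 5 to 7 genes called higher, 1 to 3 called lower and a median log2 change of 0.23 to 0.48, and for the difference between histories it gave 5 to 6 genes. Library totals gave 12 higher, 0 lower and a median of 1.01, and turned AN0245 to 0.54, AN4532 to 0.27 and AN5764 to 0.49. Voom turned AN7900 to -0.047. Leaving out 1 culture gave AN7900 -2.32 to 1.97, AN11810 -0.0013 to 0.95, AN0245 -0.12 to 0.0062 and AN5764 -0.24 to 0.034. The cause was not tested. Against naive used cultures, leaving out 1 culture, an alternative chosen after seeing the data, gave 5 to 8 genes called. Of the other values of single genes, 18 lost and 5 gained a call under an alternative. The letters A and B were shared by name only (correlation of deviations of -0.33 for the 2 groups, and -0.43 to 0.50 over 28 pairs of groups). A replicate block on them gave 8 higher and 3 lower with a median of 0.44, and 7683 in place of 7711 genes called. A crossed pairing, chosen after seeing the data, gave 5 higher, 3 lower and 7346 genes.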

Other observations

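In the authors' deposited table of log2 FPKM the starved group was the highest of the 8 groups for all 17 genes, with a starved minus grown difference of 1.41 to 8.78 and a median of 2.51. The smallest was that of AN7900, whose fitted change from counts was 3.03 on the log2 scale. The deposited value of AN8688 in that table was 5.58 for the starved and 5.58 for the pre-starved refed group, where the counts gave 20.0 and 21.6 CPM in starved and 17.3 and 18.3 CPM in pre-starved refed cultures.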
